A study of Mus musculus with 16 samples.

Results

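The liver makes most of the proteins of the complement and coagulation cascades, and 42 of their genes were followed here in livers of mice given oxaliplatin. The genes were chosen by name: 21 of complement (its serine proteases, C3 to C9, and the soluble regulators) and 21 of coagulation and fibrinolysis (clotting factors, fibrinogen, inhibitors and plasminogen). All 42 were found among the 40840 gene symbols of the count table, and all 42 passed the filter on low counts that kept 14484 genes.

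Poly(A)-selected RNA was sequenced as read pairs of 150 bases from livers of male C57BL/6J mice aged 12 to 16 weeks. All 4 groups had been injected with oxaliplatin (a DNA-crosslinking platinum compound) at 12 mg/kg into the peritoneum on 3 days, after 3 weeks under 12 h of light and 12 h of dark and with constant darkness from 3 days before the drug. The 4 groups had 4 libraries each. CryDKO_CT16 and CryDKO_CT8 were Cry1-/-Cry2-/- mice dosed at circadian time (CT) 16 or 8, and WT_CT16 and WT_CT8 were wild-type mice dosed at the same times. The knockout was in the whole body and so was not limited to hepatocytes. No untreated group was analysed here, so none of the values below is an effect of the drug. When the livers were collected after dosing is not stated in the labels, and these do not say that replicates were separate animals, so p-values measure the spread between these libraries. The design text also mentions 1 dose, which differs from 3 days of dosing.

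Complement is a chain of plasma proteases and pore-forming proteins that tags and lyses microbes. The classical and lectin pathways start it through C1r, C1s, the mannose-binding lectins and their proteases, the alternative pathway amplifies it through factor B, and all meet at C3, after which C5 to C9 assemble the membrane attack complex. Coagulation is another chain of proteases that ends in thrombin, which cuts fibrinogen to fibrin. Antithrombin and heparin cofactor II restrain it, and plasmin, made from plasminogen and held back by antiplasmin, dissolves the clot. In hepatocytes many of these genes are known targets of liver-enriched factors such as HNF1, HNF4 and C/EBP, and several, fibrinogen among them, belong to the acute phase response driven by interleukin 6 and STAT3.

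The promoters of 5 genes are shown as examples, picked after the values were seen, of neighbours in the genome that were called together: the 3 fibrinogen chain genes, which lie next to each other on chromosome 3 and were higher in CryDKO livers at CT8, and Klkb1 and F11, which are neighbours on chromosome 8 and were lower in CryDKO livers at CT16. The sequences are RefSeq's for build GRCm38.p6, given 5′ to 3′ on the strand of the gene from 250 bases before to 50 bases after its start. Other neighbours called together, Cfb with C2 and F7 with F10, are not shown. Capitals mark every match on either strand to an HNF1 core (GTTAAT), a C/EBP type motif (TTNNGNAA), an IL-6 response element (CTGGGAA) or a STAT type motif (TTCNNNGAA).
Fga, chr3:83025903-83026202, plus strand: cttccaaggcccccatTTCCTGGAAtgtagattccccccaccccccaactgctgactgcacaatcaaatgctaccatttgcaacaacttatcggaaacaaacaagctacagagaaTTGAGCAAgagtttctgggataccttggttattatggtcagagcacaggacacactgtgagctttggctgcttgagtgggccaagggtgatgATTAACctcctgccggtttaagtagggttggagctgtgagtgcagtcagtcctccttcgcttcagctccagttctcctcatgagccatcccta
Fgb, chr3:83049814-83050113, minus strand: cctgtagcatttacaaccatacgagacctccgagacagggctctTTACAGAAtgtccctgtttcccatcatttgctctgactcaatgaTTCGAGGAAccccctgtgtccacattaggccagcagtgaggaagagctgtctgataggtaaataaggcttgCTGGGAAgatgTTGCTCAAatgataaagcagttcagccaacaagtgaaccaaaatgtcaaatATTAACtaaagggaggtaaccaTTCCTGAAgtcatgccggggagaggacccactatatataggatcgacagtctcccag
Fgg, chr3:83007474-83007773, plus strand: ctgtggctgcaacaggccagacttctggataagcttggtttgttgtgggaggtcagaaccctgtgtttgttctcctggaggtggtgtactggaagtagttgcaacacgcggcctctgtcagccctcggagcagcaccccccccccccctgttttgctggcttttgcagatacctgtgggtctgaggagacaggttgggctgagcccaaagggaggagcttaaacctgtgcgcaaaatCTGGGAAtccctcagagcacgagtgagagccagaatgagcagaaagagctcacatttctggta
Klkb1, chr8:45294786-45295085, minus strand: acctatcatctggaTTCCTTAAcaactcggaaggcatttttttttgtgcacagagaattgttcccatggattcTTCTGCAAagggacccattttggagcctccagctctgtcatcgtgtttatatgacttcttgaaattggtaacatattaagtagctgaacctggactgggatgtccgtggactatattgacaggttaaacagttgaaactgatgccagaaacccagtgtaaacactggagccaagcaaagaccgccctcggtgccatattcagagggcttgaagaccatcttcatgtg
F11, chr8:45261982-45262281, minus strand: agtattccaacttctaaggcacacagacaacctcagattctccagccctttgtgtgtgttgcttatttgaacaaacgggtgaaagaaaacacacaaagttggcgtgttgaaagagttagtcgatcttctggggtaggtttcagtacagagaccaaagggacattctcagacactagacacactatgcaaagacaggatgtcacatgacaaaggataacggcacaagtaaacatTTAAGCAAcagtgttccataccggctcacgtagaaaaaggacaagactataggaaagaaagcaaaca

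The Fga window held an HNF1 core 43 bases before the start, a C/EBP type match and a STAT type match. The Fgb window held an HNF1 core 29 bases before the start, 3 C/EBP type matches, an IL-6 response element 91 bases before the start and a STAT type match. The Fgg window held a single match, an IL-6 response element 13 bases before the start. The windows of Klkb1 and F11 held only C/EBP type matches, 2 and 1, and neither an HNF1 core nor an IL-6 response element. Windows were found for 32 of the 42 genes, 34 windows in all. An HNF1 core was in 29.4% of these 34 windows, against 7.1% of all 32851 promoter windows of the same length. The IL-6 response element was in 23.5% of the 34 windows, against 11.1% of all windows, the STAT type motif in 23.5%, against 8.3%, and the C/EBP type motif in 61.8%, against 40.7%. The D-box of the clock output factors (TTATGNAA, every match of which is also a C/EBP type match) was in 8.82% of the 34 windows and in 3.38% of all windows. The E-box bound by CLOCK and BMAL1 (CACGTG) was in 0 of the 34 windows, against 7.15% of all windows. These matches are descriptions of letters in a window and not binding sites.

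The 42 genes took a large part of the RNA. They held 8.27% ± 0.985 of the counted reads in CryDKO_CT16 and 6.73% ± 1.02 in WT_CT16, and 6.94% ± 0.897 in CryDKO_CT8 and 5.13% ± 0.244 in WT_CT8 (SD, n = 4 libraries). At CT8 every CryDKO library lay above every WT library, and at CT16 the ranges overlapped. Within WT_CT16, library 8 stood at 5.40%, close to WT_CT8, whereas libraries 5 to 7 held 6.48% to 7.65%. That library has to be kept in mind for all values below, since its TMM scaling factor (trimmed mean of M values), 1.203, also lay in the WT_CT8 range of 1.13 to 1.24 rather than beside the other WT_CT16 libraries.

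**Figure D1:**
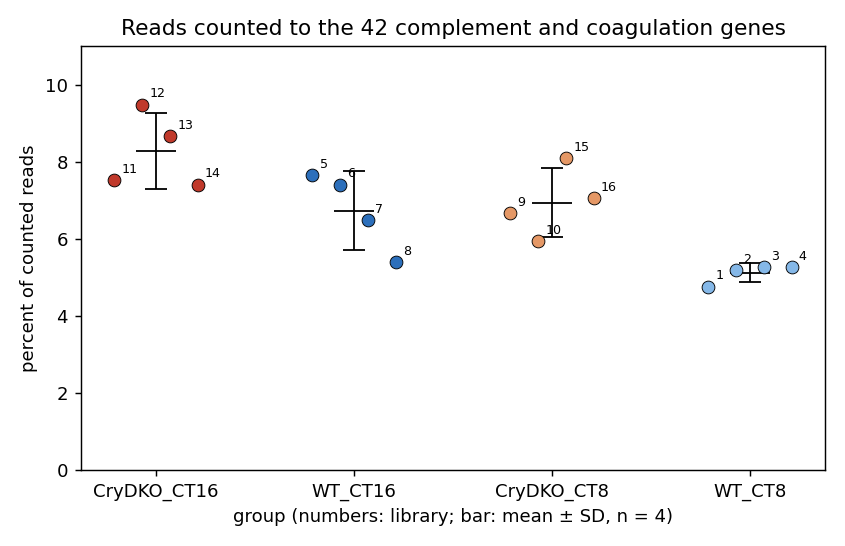
Percent of counted reads that fell on the 42 complement and coagulation genes in each library, by group, with the library number beside each point and the mean ± SD of 4 libraries as a bar. All 4 WT_CT8 libraries lie between 4.76% and 5.27%, and WT_CT16 library 8 is the lowest of its group at 5.40%.

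Counted reads ranged from 18083916 to 29934138 per library. Levels are given as CPM, the reads of a gene scaled to a common library size after TMM correction. In libraries labelled CryDKO, Cry2 stood at 23.1 to 33.3 CPM, against 39.9 to 58.9 CPM in WT, while Cry1 stood at 20.5 to 29.0 CPM, against 5.14 to 15.9 CPM in WT. Counts over a whole gene do not show the deleted part, and the Cry1 level ran against a simple reading of the label, so CryDKO means the libraries labelled so throughout. Hepatocyte markers were abundant in every library, at a summed 100200 to 156800 CPM in CryDKO_CT16, 57030 to 97700 CPM in WT_CT16, 105000 to 147200 CPM in CryDKO_CT8 and 52580 to 65550 CPM in WT_CT8. The sums were higher in every CryDKO library than in every WT library of the same time. Most of each sum was Alb, with 1156939 to 2254101 reads in CryDKO_CT16, where Ahsg had 142588 to 233855. At CT16 the separation of the sums is therefore not shown for the markers as a set, whose log2 changes ran from -0.31 to 0.83. At CT8 all 9 tested markers had log2 changes above 0, from 0.419 to 1.235, with a median of 0.557. Among the single markers, 4 of the 9 tested rose in CryDKO and 0 fell at CT8, where 18.7% of all genes rose, and 1 rose and 0 fell at CT16, where 9% of all genes rose, with 7 of 9 log2 changes above 0 at CT16. Stellate cell and fibroblast markers summed to 153 to 303 CPM in CryDKO_CT8, against 130 to 171 CPM in WT_CT8, with 4 of 10 higher, against the same 18.7%, while of 10 sinusoidal endothelium markers 0 passed at CT8. In bulk RNA, a change in the number of cells of a type and a change in RNA per cell cannot be told apart, and the part of either in the results was not tested.

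Levels were compared per kilobase of exon, with all annotated exons of a gene joined together. This length can exceed that of any single transcript, which lowers the level, so ranks and shares are approximate. It was 8546 bases for Serpinc1 and 9833 bases for Masp1. On this measure C3 had the highest mean over the 16 libraries, with 2917 CPM per kb and 13.6% of the sum. In CryDKO_CT16, however, Fga at 4150 and Fgg at 3935 CPM per kb stood above C3 at 3750 CPM per kb. C3 is the protein on which all complement pathways converge. The fibrinogen chains followed, Fgg at 2633, Fga at 2625 and Fgb at 1915 CPM per kb, with vitronectin (Vtn) among them at 2033 CPM per kb. Next came the kininogen Kng1 at 1291 CPM per kb and plasminogen (Plg) at 954 CPM per kb. At the low end stood C6 at 31.9, F11 at 28.4, Pros1 at 24.5, Masp1 at 7.16 and C4a at 5.49 CPM per kb.

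**Figure D2:**
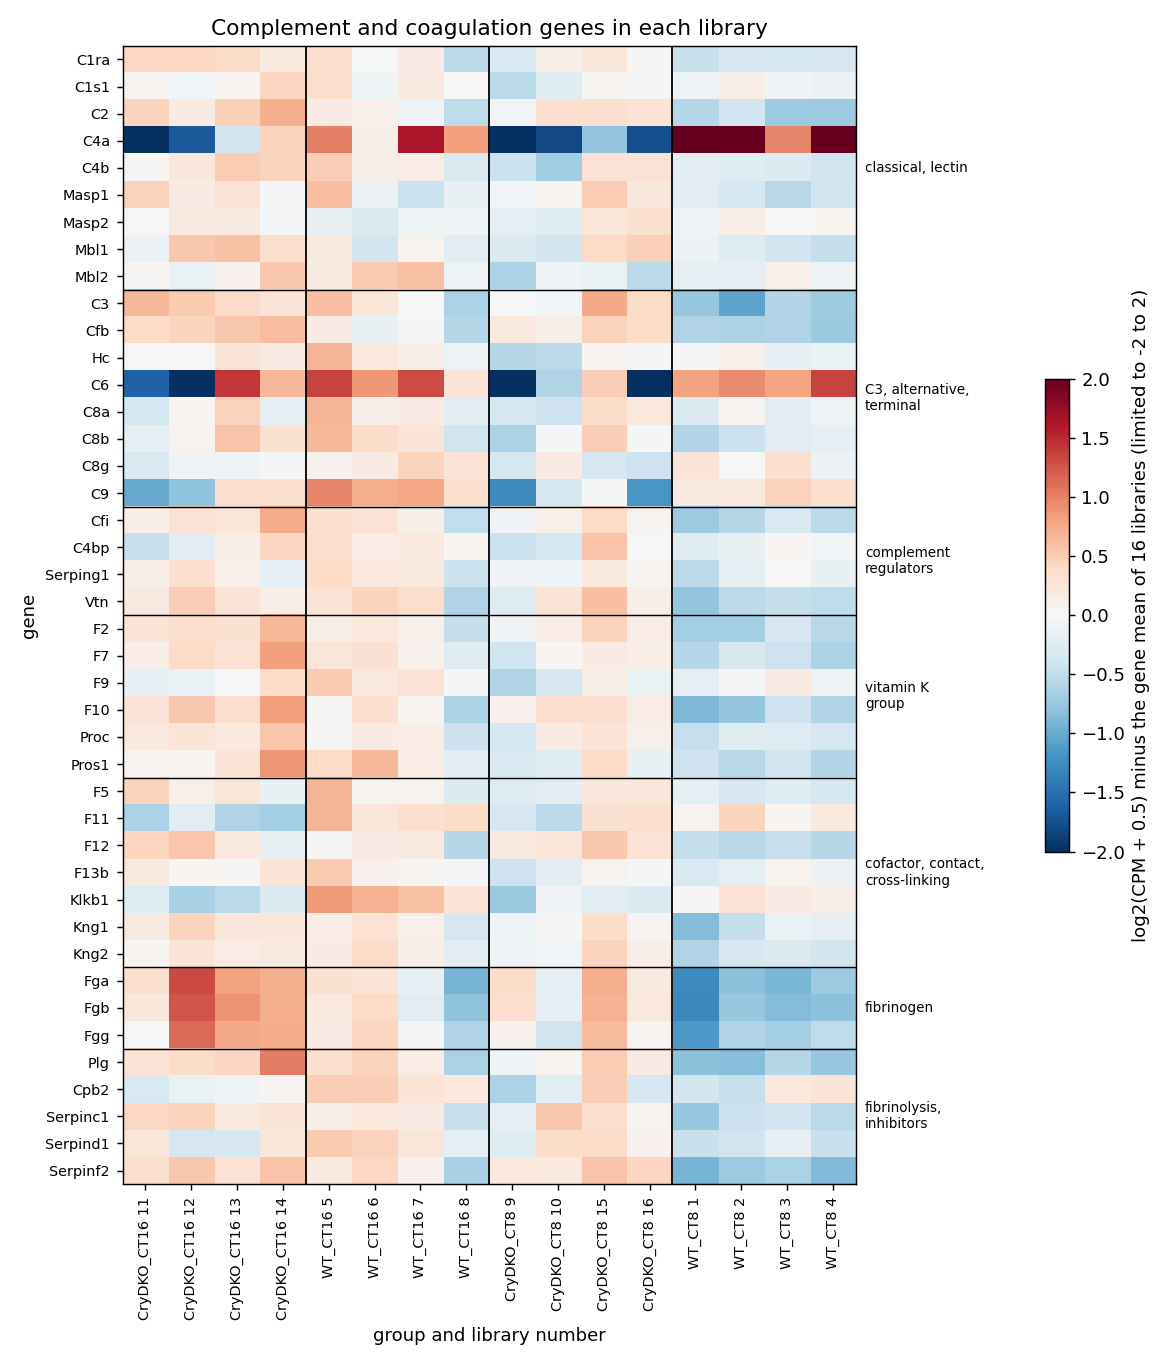
Level of each gene in each library as log2(CPM + 0.5) minus the mean of that gene over the 16 libraries, limited to -2 to 2, with genes grouped by role and libraries by group. Most rows are lowest in WT_CT8, WT_CT16 library 8 resembles WT_CT8 in many rows, and C4a, C6 and C9 run the other way and vary most within CryDKO.

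The first comparison asked how the genes differ between CryDKO and WT livers after dosing at CT8. Here 18 of the 42 genes rose in CryDKO livers and 3 fell, while 21 did not pass the test. The risers span both cascades and include all 3 fibrinogen chains, C3, factor B, C2, prothrombin, factor X, antithrombin, plasminogen and antiplasmin. Among the complement genes 6 rose and 2 fell of 21, and among the coagulation genes 12 rose and 1 fell of 21. The test was edgeR's quasi-likelihood F test over 14484 genes with Benjamini-Hochberg adjustment at a threshold of 0.05, and it called 39% of all genes in this comparison, 18.7% as higher and 20.3% as lower. The 21 of 42 genes called are to be read against that 39%. The median log2 change, CryDKO over WT, was 0.40 over the 42 genes and -0.02 over all tested genes. Over the 9 tested hepatocyte markers it was 0.557. The ranges of the groups did not overlap for 19 higher and 4 lower genes of the 42, against 39.2% of all tested genes, 18.7% higher and 20.5% lower.

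The split between higher and lower depended on the scaling. With library size in place of TMM, 12 genes rose and 11 fell of the 42, against 6.63% and 35.4% of all genes (42% together), while the median of all tested genes moved to -0.36 and that of the 42 genes to 0.05. Relative to the median of all genes the 42 genes stood 0.42 higher on the log2 scale with TMM and 0.40 higher with library size alone. Since this scaling shifts all genes together, signs of changes close to 0 follow it: those of C4b, C4bp, C8a, C8b, F5, Masp2 and Serping1, none called with TMM, turned.

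Fibrinogen is a hexamer of paired Aα, Bβ and γ chains. Fga, for the Aα chain, stood at 9026, 6104, 11621 and 7951 CPM in CryDKO_CT8, against 2892, 3979, 3732 and 4252 CPM in WT_CT8. Fgb, for the Bβ chain, stood at 8176, 5759.7, 10466 and 7518 CPM in CryDKO_CT8, against 2639, 3838, 3544 and 3688 CPM in WT_CT8. Fgg, for the γ chain, stood at 5374, 3832, 7824 and 5238 CPM in CryDKO_CT8, against 2267, 3323, 3152 and 3558 CPM in WT_CT8. For all 3 chains the lowest CryDKO library lay above the highest WT library, though for Fgg by little. The log2 changes were 1.22 ± 0.27 for Fga (approximate SE here and below, adjusted p = 0.00195, edgeR), 1.22 ± 0.27 for Fgb (adjusted p = 0.00174) and 0.86 ± 0.27 for Fgg (adjusted p = 0.0165). The Fgg call was lost with library size alone, without WT_CT8 library 1 and without CryDKO_CT8 library 15, its adjusted p running from 0.00381 to 0.0767 over the 22 alternative settings by edgeR and DESeq2.

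The proportions of the chains were compared next. The ratio of Fgb to Fga in CPM lay between 0.859 and 1.02 in all 16 libraries, with overlapping groups. The ratio of Fgg to Fga was 0.595 to 0.673 in CryDKO_CT8, against 0.784 to 0.844 in WT_CT8, without overlap. At CT16 it was 0.576 to 0.727 in CryDKO and 0.655 to 0.904 in WT, with overlap. Per kilobase the ratio of Fgg to Fga was 0.856 to 0.968 in CryDKO_CT8 and 1.13 to 1.21 in WT_CT8. The ratios were compared after the levels had been seen and were not tested.

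Serpinf2 encodes antiplasmin, the main inhibitor of plasmin, and gave the lowest adjusted p of the 42 genes at CT8. It stood at 1088, 1069, 1395 and 1265 CPM in CryDKO_CT8, against 492, 569, 604 and 506 CPM in WT_CT8, a log2 change of 1.15 ± 0.20 (adjusted p = 0.000262, edgeR). Its target's precursor plasminogen, Plg, stood at 3123, 3433, 4687 and 3691 CPM in CryDKO_CT8, against 1867, 1822, 2219 and 1954 CPM in WT_CT8 (log2 change 0.93 ± 0.23, adjusted p = 0.0042). Both groups were well apart for each gene. Of the 5 genes of fibrinolysis and coagulation inhibition 4 rose, the others being antithrombin, Serpinc1, with a log2 change of 0.74 ± 0.19 (adjusted p = 0.006, edgeR) and heparin cofactor II, Serpind1, with 0.53 ± 0.20 (adjusted p = 0.039). Serpind1 stood at 347, 531, 537 and 435 CPM in CryDKO_CT8, against 303, 314, 367 and 301 CPM in WT_CT8, so that a CryDKO library fell inside the WT range. Its call was lost with library size alone and without any of WT_CT8 libraries 1, 2 and 4 or CryDKO_CT8 libraries 10 and 15 (adjusted p of 0.0172 to 0.377 over the alternatives, edgeR and DESeq2). The exception was Cpb2, the fibrinolysis inhibitor made as a procarboxypeptidase, at 134 to 295 CPM in CryDKO_CT8 and 153 to 252 CPM in WT_CT8.

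Among the vitamin K dependent proteins, 3 of 6 rose. Factor X, which with factor V turns prothrombin into thrombin, rose most: F10 stood at 603, 718, 706 and 627 CPM in CryDKO_CT8, against 305, 331, 428 and 374 CPM in WT_CT8 (log2 change 0.89 ± 0.19, adjusted p = 0.0017, edgeR). Prothrombin, F2, stood at 2292 to 3324 CPM in CryDKO_CT8 and 1501 to 1916 CPM in WT_CT8 (0.74 ± 0.19, adjusted p = 0.00504). Factor VII, the starter of the tissue factor pathway and a direct neighbour of F10 in the genome, rose less. F7 stood at 117, 158, 173 and 169 CPM in CryDKO_CT8, against 104, 123, 116 and 99.6 CPM in WT_CT8, with 1 CryDKO library inside the WT range (0.48 ± 0.17, adjusted p = 0.0318). Its call was lost with library size alone and without any of WT_CT8 libraries 1 and 4 or CryDKO_CT8 libraries 10, 15 and 16 (adjusted p of 0.0116 to 0.455 over the alternatives, edgeR and DESeq2). The genes for factor IX, protein C and its partner protein S had log2 changes of -0.18 for F9, 0.38 for Proc and 0.44 for Pros1 and did not pass.

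The contact system, which starts clotting on surfaces, was split. Factor XII rose: F12 stood at 826, 866, 1066 and 888 CPM in CryDKO_CT8, against 523, 497, 529.5 and 491 CPM in WT_CT8 (log2 change 0.84 ± 0.19, adjusted p = 0.00188, edgeR). Prekallikrein, the protease that factor XII activates, fell: Klkb1 stood at 128, 204, 185 and 177 CPM in CryDKO_CT8, against 218, 261, 241 and 235 CPM in WT_CT8 (-0.46 ± 0.16, adjusted p = 0.0321). Every CryDKO library lay above every WT library for F12 and below every WT library for Klkb1. The Klkb1 call at CT8 was lost without the low count filter, without any single WT_CT8 library and without CryDKO_CT8 library 9 or 16 (adjusted p of 0.000246 to 0.165 over the alternatives, edgeR and DESeq2). The kininogens are cofactors of these proteases and the source of bradykinin. Kng2 stood at 541, 554, 785 and 635 CPM in CryDKO_CT8, against 380.3, 463, 474 and 447 CPM in WT_CT8 (0.51 ± 0.17, adjusted p = 0.0199), a call lost with library size alone, without WT_CT8 library 1 and without CryDKO_CT8 library 15 (adjusted p of 0.00278 to 0.317 over the alternatives). Its neighbour and paralog Kng1 stood at 3815, 4183, 5305 and 4262 CPM in CryDKO_CT8, against 2246, 2957, 3745 and 3622 CPM in WT_CT8, and narrowly did not pass (0.48 ± 0.20, adjusted p = 0.0604). The kininogens share 2.14% of the 150-base windows of Kng1 without a mismatch, so few reads could be assigned to the wrong copy. Factor V, factor XI and the factor XIII B subunit, with log2 changes of 0.30 for F5 and -0.01 for F13b, did not pass, and F11 stood at 48.3, 42.4, 75.5 and 76.7 CPM in CryDKO_CT8, against 63.9, 83.0, 62.4 and 70.1 CPM in WT_CT8, with overlap.

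**Figure D3:**
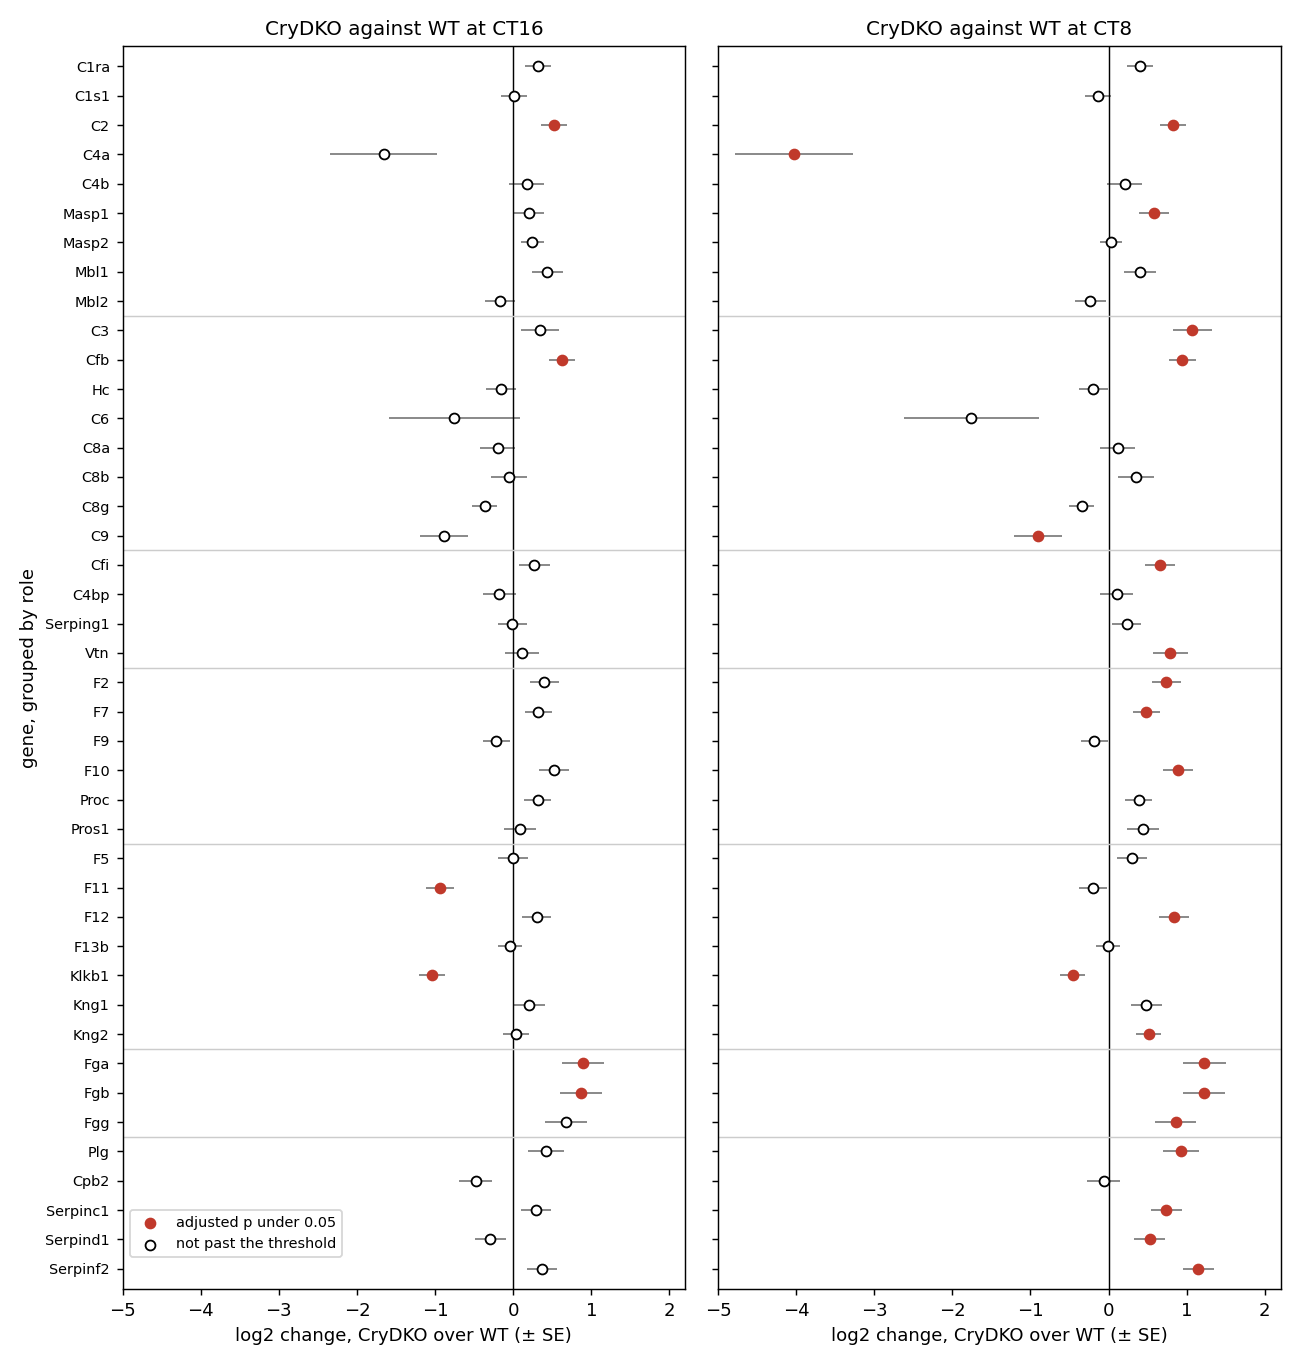
log2 change of each of the 42 genes, CryDKO over WT, at CT16 (left) and CT8 (right), with the approximate SE as a bar, genes grouped by role from top to bottom, and filled points for an adjusted p under 0.05 by edgeR. At CT8 18 genes lie right of 0 past the threshold and 3 left of it, and at CT16 4 and 2.

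In complement, C2, Cfb and C3 rose, whereas C4b, the partner of C2 in its convertase, did not pass. Factor B of the alternative pathway and C2 of the classical pathway are neighbouring genes on chromosome 17 whose products form the proteases that cut C3. Cfb stood at 1800.4, 1715, 2165 and 2046 CPM in CryDKO_CT8, against 1032, 1016, 1040.2 and 937 CPM in WT_CT8 (log2 change 0.94 ± 0.17, adjusted p = 0.000441, edgeR). C2 stood at 133, 175, 173 and 167 CPM in CryDKO_CT8, against 92.2, 107, 83.1 and 82.8 CPM in WT_CT8 (0.83 ± 0.16, adjusted p = 0.000804). Their common substrate C3 stood at 13946, 13518, 23637 and 18066 CPM in CryDKO_CT8, against 8279.6, 6726, 9294 and 8585 CPM in WT_CT8 (1.07 ± 0.25, adjusted p = 0.00244). None of these 3 genes overlapped between the groups. C3, like C6 and C9 below, was picked for values in every library after these had been seen.

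Of the 4 soluble regulators 2 rose, factor I, the protease that inactivates C3b (Cfi, log2 change 0.66 ± 0.20, adjusted p = 0.0127, edgeR), and vitronectin, which blocks the membrane attack complex (Vtn, 0.79 ± 0.22, adjusted p = 0.00987). C4bp and the C1 inhibitor gene Serping1 had log2 changes of 0.10 and 0.23 and did not pass. Of the lectin pathway proteases Masp1 rose (0.58 ± 0.19, adjusted p = 0.0199), whereas Masp2 had 0.03. The calls of Masp1 and Cfi were lost with library size alone, and that of Masp1 also without CryDKO_CT8 library 15 (adjusted p of 0.00457 to 0.357 for Masp1 and 0.00265 to 0.0721 for Cfi over the alternatives, edgeR and DESeq2). The mannose-binding lectins recognise sugars on microbes, and their genes, which share none of their 150-base windows, did not pass. Mbl1 stood at 174, 162, 279 and 295 CPM in CryDKO_CT8, against 195, 178, 162 and 152 CPM in WT_CT8. Mbl2 stood at 467, 682, 658 and 501 CPM in CryDKO_CT8, against 631, 631, 769 and 680.3 CPM in WT_CT8. In both genes the groups overlapped. The classical pathway proteases C1ra and C1s1 had log2 changes of 0.40 and -0.14 and did not pass either, and 26.3% of the windows of C1ra are also found in C1rb, to which 0 to 3 reads were counted per library, against 4746 to 7812 for C1ra.

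C4a moved most of all 42 genes. It is a duplicate of C4b known in mice as the sex-limited protein, whereas C4b encodes the working C4. C4a stood at 1.39, 4.72, 9.96 and 4.86 CPM in CryDKO_CT8, against 108, 121, 35.2 and 73.0 CPM in WT_CT8, a log2 change of -4.03 ± 0.75 (adjusted p = 0.0015, edgeR). C4b stood at 1783, 1481, 2942 and 2940.1 CPM in CryDKO_CT8, against 2052, 2043, 1995 and 1822 CPM in WT_CT8, with overlapping groups (0.21 ± 0.22, adjusted p = 0.481). The ratio of C4a to C4b was 0.000782 to 0.00339 in CryDKO_CT8 and 0.0177 to 0.0594 in WT_CT8. The genes share 8.27% of the windows of C4a, and some reads counted to C4a could stem from the far more abundant C4b.

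The terminal pathway held the other complement gene that fell, C9. C9, which forms the ring of the membrane attack complex, stood at 127, 242, 300.2 and 137 CPM in CryDKO_CT8, against 346, 353, 423 and 386 CPM in WT_CT8 (log2 change -0.90 ± 0.31, adjusted p = 0.0275, edgeR). The call was lost without the low count filter, without any single WT_CT8 library and without CryDKO_CT8 library 9 or 16 (adjusted p of 0.00147 to 0.1 over the alternatives, edgeR and DESeq2). Its C6 partner stood at 8.11, 51.7, 110.2 and 14.7 CPM in CryDKO_CT8, against 137, 151, 136 and 199.8 CPM in WT_CT8, without overlap, but the spread among CryDKO libraries was wide and the change did not pass (-1.76 ± 0.86, adjusted p = 0.125). The C5 gene Hc and the 3 C8 chain genes had log2 changes of -0.19 for Hc, 0.12 for C8a, 0.35 for C8b and -0.34 for C8g and did not pass.

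C6 and C9 varied together among CryDKO libraries of both dosing times. The 4 of 8 CryDKO libraries with the lowest C6 were also the 4 with the lowest C9, libraries 9 and 16 of CryDKO_CT8 and 11 and 12 of CryDKO_CT16. In these groups the coefficient of variation of C6 was 98.9% at CT16 and 101% at CT8, above that of every other gene of the 42. The split was not limited to C6 and C9. Of the 4 libraries with the lowest C6, 3 were also among the 4 with the lowest C4a. Serpina1e, of the other coagulation genes, had 5303 to 9633 reads in libraries 9, 16, 11 and 12, against 56120 to 94526 in the other CryDKO libraries. The erythroid marker Alas2 had 242 to 326 reads, against 484 to 754. These patterns were seen in the values, were not tested, and no label separates these libraries.

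**Figure D4:**
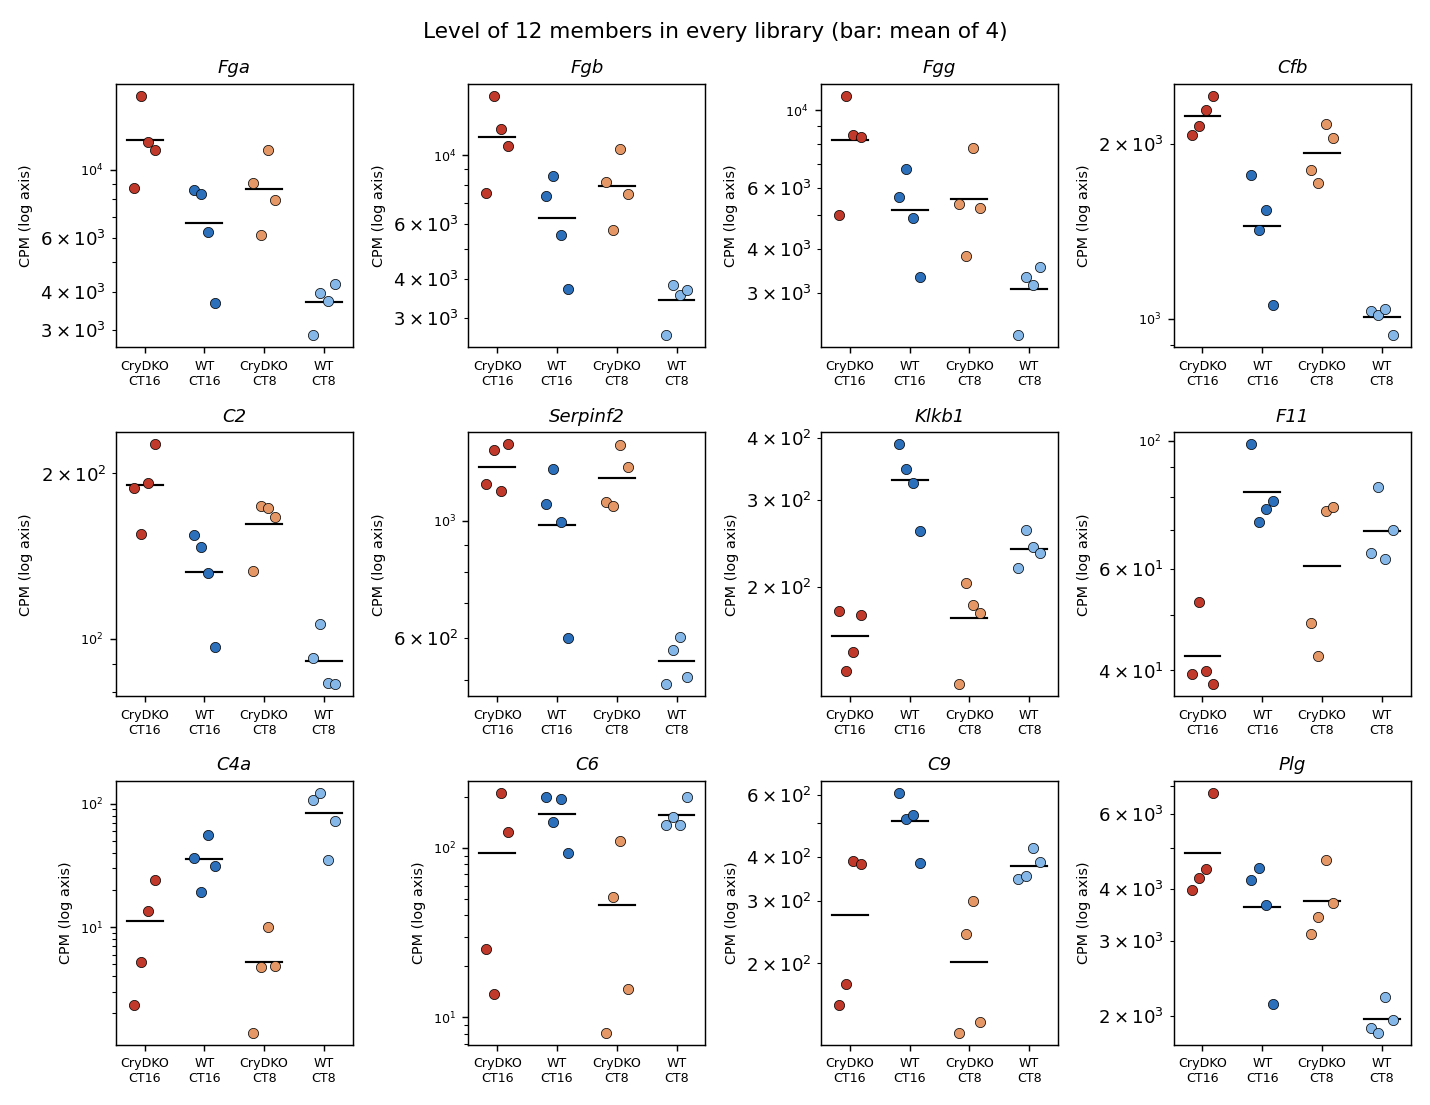
CPM (log axis) of 12 genes in every library, with a bar at the mean of 4 and groups in the order CryDKO_CT16, WT_CT16, CryDKO_CT8, WT_CT8. Fibrinogen chains, Cfb, C2, Serpinf2 and Plg are low in WT_CT8. Klkb1 is low in CryDKO_CT16 and CryDKO_CT8, F11 is low in CryDKO_CT16, and C4a, C6 and C9 are low and scattered in CryDKO.

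The second comparison asked the same of livers dosed at CT16. Fewer genes passed: 4 rose in CryDKO livers, Fga, Fgb, Cfb and C2, and 2 fell, Klkb1 and F11, while 36 did not pass. The test called 18.2% of all genes, 9% as higher and 9.15% as lower, so 6 of 42 genes is below the share among all genes. The median log2 change was 0.14 over the 42 genes and -0.01 over all tested genes. Over the 9 tested hepatocyte markers it was 0.265. With library size in place of TMM, 3 genes rose and 5 fell, against 4.18% and 13% of all genes (17.2% together), and the median of all genes moved to -0.16. The groups did not overlap for 6 higher and 4 lower genes, against 19.8% of all tested genes, 9.65% higher and 10.2% lower. Without WT_CT16 library 7, or without library 8, the calls left were the 3 of Cfb, F11 and Klkb1, with 12.9% of all genes called without library 8. The comparison uses other libraries than the one at CT8 but the same estimate of spread.

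Klkb1 and F11, for prekallikrein and factor XI, are neighbouring genes of related proteases of the contact pathway. Klkb1 stood at 179, 136, 148 and 176 CPM in CryDKO_CT16, against 388, 346, 323 and 259 CPM in WT_CT16 (log2 change -1.04 ± 0.17, adjusted p = 0.000387, edgeR). F11 stood at 39.4, 52.6, 39.9 and 37.9 CPM in CryDKO_CT16, against 98.5, 72.3, 76.2 and 78.6 CPM in WT_CT16 (-0.94 ± 0.18, adjusted p = 0.00189). In both genes every CryDKO library lay below every WT library, and both calls held in all 22 alternative settings. F12 of the same system stood at 980.3, 1075, 838 and 658 CPM in CryDKO_CT16, against 742, 816, 827 and 493 CPM in WT_CT16, with overlap. The kininogens overlapped as well. Kng1 stood at 4616, 5579, 4799 and 4795 CPM in CryDKO_CT16, against 4538, 5016, 4405 and 3240.2 CPM in WT_CT16. Kng2 stood at 595, 699, 641 and 653 CPM in CryDKO_CT16, against 645, 750.2, 632 and 498 CPM in WT_CT16.

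Fibrinogen was higher in CryDKO at this time too. Fga stood at 8717, 17408, 12291 and 11549 CPM in CryDKO_CT16, against 8602, 8341, 6269.5 and 3679 CPM in WT_CT16 (log2 change 0.89 ± 0.27, adjusted p = 0.0278, edgeR). Fgb stood at 7549, 15547, 12109.6 and 10716 CPM in CryDKO_CT16, against 7389, 8549, 5558 and 3703 CPM in WT_CT16 (0.87 ± 0.27, adjusted p = 0.0294). The groups nearly met for Fga and overlapped for Fgb, and both calls were lost without any of WT_CT16 libraries 7 and 8 or CryDKO_CT16 libraries 12 and 13 and with only the groups compared in the fit (adjusted p of 0.00646 to 0.108 for Fga and 0.00719 to 0.108 for Fgb over the alternatives, edgeR and DESeq2). Fgg stood at 5019, 11026, 8499 and 8395 CPM in CryDKO_CT16, against 5631, 6786, 4925 and 3325 CPM in WT_CT16, and did not pass (0.67 ± 0.27, adjusted p = 0.084).

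Cfb and C2 rose as well. Cfb stood at 2070.2, 2145, 2285 and 2421 CPM in CryDKO_CT16, against 1767, 1421, 1541 and 1055 CPM in WT_CT16 (log2 change 0.63 ± 0.17, adjusted p = 0.0163, edgeR). C2 stood at 189, 155, 192 and 226 CPM in CryDKO_CT16, against 155, 147, 132 and 96.8 CPM in WT_CT16, the lowest CryDKO library just above the highest WT library (0.52 ± 0.16, adjusted p = 0.031). The C2 call was lost in 8 of the 22 alternatives, among them those without WT_CT16 library 7 or 8 or CryDKO_CT16 library 11, 13 or 14, and that of Cfb only with just the groups compared in the fit (adjusted p of 0.0157 to 0.107 for C2 and 0.000461 to 0.0656 for Cfb over the alternatives, edgeR and DESeq2). Their substrate C3 did not pass, at 22034, 20087, 18245 and 16769.7 CPM in CryDKO_CT16, against 21169, 16612, 13988 and 9071 CPM in WT_CT16. The falls seen at CT8 in C4a and C9 did not pass here. C4a stood at 2.35, 5.17, 13.5 and 24.1 CPM in CryDKO_CT16, against 36.1, 19.1, 55.6 and 31.5 CPM in WT_CT16 (-1.66 ± 0.68, adjusted p = 0.112). C9 stood at 152, 175, 390.0 and 382 CPM in CryDKO_CT16, against 605, 511, 526 and 384 CPM in WT_CT16 (-0.88 ± 0.31, adjusted p = 0.0541). For C9 the log2 changes at the 2 times were nearly equal, with the p-value on either side of the threshold. C6 stood at 25.2, 13.8, 210.3 and 125 CPM in CryDKO_CT16, against 200.4, 142, 194 and 93.7 CPM in WT_CT16, with wide overlap.

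The remaining genes with a value in every library overlapped between the groups at CT16, and none passed. Serpinf2 stood at 1175, 1359.8, 1141 and 1396 CPM in CryDKO_CT16, against 1078, 1252, 997 and 599.8 CPM in WT_CT16. Plg stood at 3974, 4241, 4444 and 6726 CPM in CryDKO_CT16, against 4192, 4486, 3649 and 2129 CPM in WT_CT16. In both, library 8 was the lowest WT library by far. F10 stood at 679, 823, 716 and 1017 CPM in CryDKO_CT16, against 575, 718, 589.9 and 371 CPM in WT_CT16. F7 stood at 169, 200.4, 189 and 273 CPM in CryDKO_CT16, against 183, 189.6, 164 and 130.4 CPM in WT_CT16. Library 8 was again the lowest for these factors of the vitamin K group. Serpind1 stood at 489, 326, 329.5 and 489 CPM in CryDKO_CT16, against 589, 565, 488 and 359 CPM in WT_CT16. Cpb2, at 169 to 218 CPM in CryDKO_CT16 and 243 to 295 CPM in WT_CT16, did not overlap but did not pass either (log2 change -0.48, adjusted p = 0.117, edgeR). That gene, which restrains fibrinolysis, thus had its groups apart at CT16 and overlapping at CT8. C4b stood at 2451, 2812, 3435 and 3269 CPM in CryDKO_CT16, against 3399.7, 2606, 2658 and 1968 CPM in WT_CT16. Mbl1 stood at 195, 309.7, 319 and 272 CPM in CryDKO_CT16, against 239, 163, 223 and 183 CPM in WT_CT16, so that the groups overlapped through 1 CryDKO library. Mbl2 stood at 731, 659.7, 767 and 1047 CPM in CryDKO_CT16, against 819, 1035, 1083 and 669 CPM in WT_CT16.

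The third comparison asked whether the genes differ between WT livers dosed at CT16 and at CT8. Of the 42 genes 2 rose at CT16, Serpinf2 with a log2 change of 0.85 ± 0.20 (adjusted p = 0.0366, edgeR) and Plg with 0.88 ± 0.23 (adjusted p = 0.0476), and 0 fell, while the test called 2.53% of all genes, 1.24% as higher and 1.3% as lower. With the values given above, the genes for antiplasmin and plasminogen lay above every WT_CT8 library in WT_CT16 libraries 5 to 7, and inside the WT_CT8 range in library 8. Hepatocyte markers had a median log2 change of 0.472, with 9 of 9 tested above 0. For 40 of 42 genes the log2 change was above 0, with a median of 0.46, against -0.04 over all tested genes. The 2 genes below 0 were C4a (-1.25 ± 0.66, adjusted p = 0.246) and Masp2 (-0.18 ± 0.15). The groups did not overlap for 4 higher genes, Cfb, F7, Pros1 and Kng2, and 1 lower gene, Masp2, against 12.6% of all tested genes, 5.52% higher and 7.12% lower. This comparison shares WT_CT8 with the comparison of genotypes at CT8, so a library set of low values enters both.

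Among single libraries left out, library 8 moved this count most. Without that library, 26 of the 42 genes rose, by 0.47 to 1.10 on the log2 scale, and 0 fell. The test then called 24.4% of all genes, 12.9% as higher. Those 26 genes include the 3 fibrinogen chains, C3, Cfb, C2 and Klkb1. Fga for example stood at 8602, 8341 and 6269.5 CPM in WT_CT16 libraries 5 to 7 and at 3679 CPM in library 8, against 2892 to 4252 CPM in WT_CT8. On the other side, without any single WT_CT8 library or without any of WT_CT16 libraries 5 to 7, the count was 0. Over the alternatives the adjusted p ran from 0.00252 to 0.165 for Plg and from 0.000943 to 0.149 for Serpinf2 (edgeR and DESeq2). DESeq2 called 19 of the 42 genes with all libraries, against 6.19% of the 25231 genes with any read. That base includes genes of low count, unlike the 14484 of edgeR, so the 2 shares are not alike. No label sets library 8 apart. Its hepatocyte markers summed to 57030 CPM, against 84850 to 97700 CPM in libraries 5 to 7. Kupffer cell and macrophage markers summed to 119 CPM, against 29.5 to 60.8 CPM. Sinusoidal endothelium markers stood at 133 CPM, against 47.7 to 79.4 CPM, and stellate cell and fibroblast markers at 195 CPM, against 82.7 to 107 CPM. Its cholangiocyte markers, at 54.6 CPM, lay within the range of libraries 5 to 7. What sets library 8 apart was not tested.

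**Figure D5:**
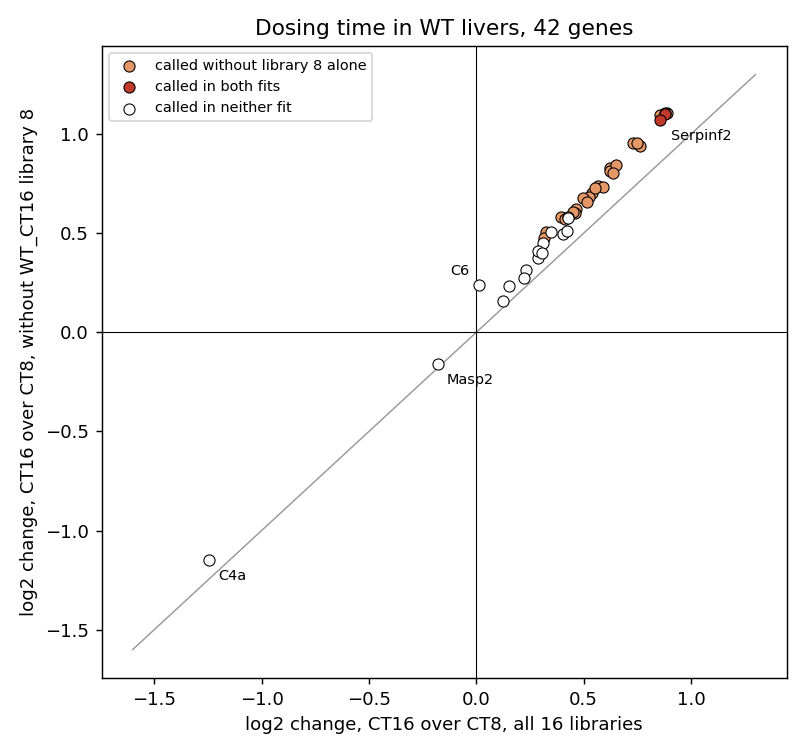
log2 change of each of the 42 genes in WT livers, CT16 over CT8, with all 16 libraries (x axis) and without WT_CT16 library 8 (y axis), with the line of equal values in grey. With all libraries 2 genes passed the test, and without library 8 26 genes did, most of them above the line.

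The fourth comparison, CT16 against CT8 in CryDKO livers, called 0 of the 42 genes, as it called 0% of all genes. At an unadjusted p under 0.05 there were 4 of the 42 genes, 3 of them higher, and DESeq2 also called 0. The share of all genes at that unadjusted p was not counted, here or for the interaction below. The lowest p-values, none of which passed, were those of F11 with a log2 change of -0.52 (adjusted p = 0.671, edgeR), F7 with 0.43 (adjusted p = 0.714) and Mbl2 with 0.47 (adjusted p = 0.734). No gene had groups that did not overlap, against 2.45% of all tested genes. The log2 change was above 0 for 38 of 42 genes, with a median of 0.23, against 0.00 over all tested genes. Over the hepatocyte markers the median was 0.007, with 5 of 9 tested above 0.

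Whether the genotype difference itself changed with dosing time was tested as an interaction. It called 0 of the 42 genes, against 0.0414% of all genes, with 7 of the 42 at an unadjusted p under 0.05 and 0 by DESeq2. The lowest p-values were those of Serpind1 with a difference of log2 changes of -0.82 (adjusted p = 0.249, edgeR), F11 with -0.74 (adjusted p = 0.26) and Serpinf2 with -0.78 (adjusted p = 0.266). The larger number of genes called at CT8 than at CT16 is therefore not shown to be a difference between the times. Without WT_CT16 library 8, 2 genes passed, Serpind1 (-0.98, adjusted p = 0.0454) and Serpinf2 (-0.99, adjusted p = 0.0243), both lower, where 3.86% of all genes passed.

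Other genes of the pathways are given as whole lists. Of 28 tested other complement genes 2 rose and 7 fell in CryDKO at CT8, where 39% of all genes were called, and 6 rose and 6 fell at CT16, where 18.2% were. The falls included Cfhr3, with a log2 change of -1.27 at CT8 and -1.31 at CT16 (adjusted p = 0.000228 and 0.000495, edgeR), and Cd59a, an inhibitor of the membrane attack complex on cell surfaces, with -0.83 and -1.07. The rises at CT16 included C1qb with 1.45 and C1qc with 1.36, subunits of the first component of the classical pathway, which macrophages make. Kupffer cell and macrophage markers, to which C1qa belongs, summed to 103 to 193 CPM in CryDKO_CT16, against 29.5 to 119 CPM in WT_CT16, and 3 of 10 rose, against 9% of all genes. The ranges overlapped only through WT_CT16 library 8, with 29.5 to 60.8 CPM in libraries 5 to 7. At CT8 the same markers summed to 71.3 to 175 CPM in CryDKO and 65.4 to 89.4 CPM in WT, and 1 of 10 rose, against 18.7% of all genes. Their part in the change of the C1q genes was not tested.

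Of 34 tested other coagulation and fibrinolysis genes 9 rose and 3 fell in CryDKO at CT8, again against 39% of all genes, and 0 rose and 1 fell at CT16, against 18.2%. Mcfd2 and Lman1, which encode the receptor complex that carries factors V and VIII out of the endoplasmic reticulum, had log2 changes of 0.82 (adjusted p = 0.000418, edgeR) and 0.47 (adjusted p = 0.0282) at CT8. Tfpi2, a protease inhibitor, fell at CT8 and at CT16, with log2 changes of -0.73 and -0.76. Neither list had a call for dosing time in WT or CryDKO or for the interaction.

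Of 28 regulators of plasma protein genes 8 rose and 4 fell in CryDKO at CT8, near the 39% of all genes, and 5 rose and 2 fell at CT16, against 18.2%. Hnf4a, a master regulator of hepatocyte genes, rose at both times, with log2 changes of 0.84 (adjusted p = 0.000955, edgeR) at CT8 and 0.70 (adjusted p = 0.00807) at CT16. Cebpb, an acute phase factor, also rose at both times, with 0.88 and 0.68. At CT8 Cebpd rose with 1.03, as did Cebpa with 0.64 and Stat3 with 0.57. Between the dosing times in WT 2 regulators rose at CT16, the clock output factor Dbp with 1.01 (adjusted p = 0.0201) and Cebpa with 0.75 (adjusted p = 0.0467). The part of these regulators in the levels of the 42 genes was not tested.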

How the data were processed

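The 42 genes and all gene lists were chosen with earlier results of these data known. Per the submitters' processing notes, which give tools without parameters, reads were handled with FastQC, Trimmomatic 0.35, STAR 2.5.3, HTSeq 1.99.2 and DESeq2 on build GRCm39. No source used here names the annotation or strand setting. The count table the authors deposited holds whole-number counts per gene symbol in 16 columns, not normalized, and a second deposited table of normalized values was not used. Columns were assigned to groups by name. They carry a running number over the series and no replicate number.

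Counts were fitted in R 4.3.3 with edgeR 4.0.16: filterByExpr by group, TMM scaling, and a robust quasi-likelihood model of all 16 libraries with 1 coefficient per group. P-values are two-sided and adjusted over all 14484 tested genes by Benjamini-Hochberg (threshold 0.05). An approximate SE is the size of the log2 change over the square root of F. The procedure was tested on simulated data. Values in every library are given for the 8 called genes with the lowest adjusted p in a comparison (the 3 lowest p where none was called), the fibrinogen chains and 3 paralog pairs. Per-length levels use the joined length of all annotated exons of a gene symbol in build GRCm38. Shared windows of 150 bases use mouse transcripts of that build matched by symbol. Alternatives were DESeq2 1.42.0, its size factors in edgeR, library size alone, no low count filter, no robust option, only the groups compared, and each library left out. Genes that overlap on opposite strands could not be told apart.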

Additional observations from a re-analysis of the deposited data

Results flagged for a closer look

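A library was looked at again where it lay farther from the other 3 of its group than Dixon's 95% critical value allows. Of 80 groups of values examined 3 were set apart, and chance alone sets apart about 1 in 20 groups. F11 stood at 52.6 CPM in CryDKO_CT16 library 12, above the other libraries of the group at 37.9 to 39.9 CPM, yet below every WT_CT16 library. Plg stood at 6726 CPM in CryDKO_CT16 library 14, above the other libraries of the group at 3974 to 4444 CPM. The share of counted reads on the 42 genes was 4.76% in WT_CT8 library 1, below the other libraries of the group at 5.19% to 5.27%.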

How the results depend on the processing

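No paired analysis was possible because the columns of the count table carry a running number and not the replicate number of the labels. Between genotypes at CT8, the count of 21 of 42 genes was 19 to 24 over 6 other settings and 15 to 24 without 1 library. At CT16 the count of 6 became 2 with only the groups compared in the fit, 5 without the low count filter, 8 with library size alone, 8 without the robust option, 9 by DESeq2 and 6 with its size factors, and 3 to 7 without 1 library. For dosing time in WT the count of 2 became 1 with library size alone, 11 without the low count filter, 1 without the robust option, 5 with only the groups compared and 19 by DESeq2, and was 0 to 26 without 1 library. For dosing time in CryDKO it was 0 throughout, and for the interaction 0 in all but the fit without WT_CT16 library 8, with 2, so 0 to 2 without 1 library. The share of all genes called moved with the setting as well, for dosing time in WT from 2.53% to 24.4% without WT_CT16 library 8. These counts therefore do not show how the 42 genes compare with all genes, nor whether the same genes were called. Library size alone called 23 genes at CT8, with 15 of the 21 among them. At CT16 it called 8, with 5 of the 6 among them. The causes were not tested. Of 29 calls, 15 held in all 22 alternatives: at CT8 C2, C3, C4a, Cfb, F10, F12, F2, Fga, Fgb, Plg, Serpinc1, Serpinf2 and Vtn, and at CT16 F11 and Klkb1. No named call changed its direction. C4a in CryDKO_CT8 rests on few reads, at 1.39 to 9.96 CPM, which limits the size of its change.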
